A study of Mus musculus with 6 samples.

Results

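The 3p strands of the let-7 family were followed in mouse primary mesangial cells, the contractile cells of the kidney glomerulus, after treatment with transforming growth factor beta 1 (TGF-β1). They were defined by name, with earlier results of these data known. The rule took every miRNA of the deposited table whose name starts with let-7 and ends with -3p. It also took miR-98-3p, which belongs to the same family. This gave 12 of the 778 mature miRNAs in the table. All cells were grown in 25.5 mM glucose with 20% foetal bovine serum and were used at passages 3 to 6. The Control group received no cytokine, and the TGF-β1 group received 10 ng/ml TGF-β1 over 72 h. Small RNA of 3 libraries in each group was sequenced, and the question addressed is which miRNAs differ in level after TGF-β1. The labels do not say whether the libraries of a group came from separate cultures, so the p-values measure only the spread between these libraries, which may be technical.

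A miRNA is cut as a short duplex from a hairpin precursor. One arm, the guide strand, is kept by an Argonaute protein and directs it to target mRNAs through its seed (bases 2 to 8), while the other arm, the passenger strand, is mostly released and degraded. In let-7, a family known for promoting differentiation and restraining proliferation, the 5p arm is the guide and the 3p arm is the passenger. Several let-7 guides are made from more than 1 hairpin copy, and the copies differ in their 3p arms more often than in their 5p arms. A passenger strand with a copy number in its name (a-2, c-1, f-1) can thus show which copy was processed, where no other hairpin shares its sequence.

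The sequences below show why the 3p strands of the family cannot be treated as 1 group. All 12 were found in a table of RefSeq mature miRNAs (GRCm38.p6), and the seed is in capitals. The prefix mmu- marks mouse and is mostly left out of the text that follows. The first 5 names share the seed UAUACAA, and let-7a-1-3p and let-7c-2-3p are the same 22 nt sequence.
mmu-let-7b-3p: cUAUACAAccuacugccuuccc
mmu-let-7a-1-3p and mmu-let-7c-2-3p: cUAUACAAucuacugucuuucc
mmu-let-7f-1-3p: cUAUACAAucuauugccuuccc
mmu-miR-98-3p: cUAUACAAcuuacuacuuuccu
mmu-let-7d-3p: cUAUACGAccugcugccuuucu
mmu-let-7e-3p: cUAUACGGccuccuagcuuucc
mmu-let-7i-3p: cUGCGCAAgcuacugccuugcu
mmu-let-7g-3p: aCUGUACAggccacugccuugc
mmu-let-7i-5p (a guide strand, for comparison): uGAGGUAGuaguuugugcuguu

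The 12 passenger strands carry 8 different seeds, whereas the 9 guide strands of the family carry 1, GAGGUAG. Of the passenger strands, 11 begin with C and let-7g-3p begins with A. Of the guides, 8 begin with U and let-7d-5p begins with A. In hairpins folded from the RefSeq sequences, 17 to 19 bases of each passenger strand were paired with its guide. A read of let-7a-1-3p cannot be told from a read of let-7c-2-3p, and their values below are therefore 1 measurement listed under both names. The sequence of let-7f-2-3p differs from them at 1 of the 21 positions that both cover.

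The hairpins lie at 12 places in NCBIM37, found by an exact match of the RefSeq hairpin sequence. Mirlet7d (chr13:48631381-48631483), Mirlet7f-1 (chr13:48633198-48633286) and Mirlet7a-1 (chr13:48633548-48633641) lie within 2261 bp on the minus strand of chromosome 13. Mirlet7c-2 (chr15:85537033-85537127) and Mirlet7b (chr15:85537749-85537833) lie within 801 bp on the plus strand of chromosome 15. Mirlet7f-2 (chrX:148346889-148346971) and Mir98 (chrX:148347757-148347864) lie in introns of Huwe1, within 976 bp. Mirlet7g (chr9:106081171-106081258) lies in an intron of Wdr82, and Mirlet7i (chr10:122422696-122422780, minus strand) and Mirlet7e (chr17:17967316-17967408, plus strand) overlap no other gene of the GENCODE vM1 annotation. Mirlet7a-2 (chr9:41344799-41344894) lies in an intron of the lincRNA D230004N17Rik, and Mirlet7c-1 (chr16:77599902-77599995) lies opposite an intron of Gm11146.

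The library totals ranged from 16478281 to 20169254 reads. Values are reads per 1000000 reads of that total (RPM), so 1 read was worth 0.0496 to 0.0607 RPM, and a count of 0 allows up to 0.149 to 0.182 RPM (3 reads). The listed miRNAs held 79.5% to 79.8% of the reads in Control and 71.6% to 73.1% in TGF-β1. The table held markers of smooth muscle and mesenchymal cells (4 miRNAs, summed level 2575 to 2946 RPM in Control and 2603 to 3066 RPM in TGF-β1), and of skeletal muscle (3 miRNAs, 3440 to 3646 RPM and 3285 to 3465 RPM). Within the smooth muscle and mesenchymal list, miR-145-5p rose (97.3 to 148 RPM and 231 to 247 RPM), by 0.92 on the log2 scale (limma adjusted p = 0.0023). miR-199a-3p fell (558 to 666 RPM and 480 to 487 RPM), with a log2 difference of −0.31 (limma adjusted p = 0.0219). miR-143-3p (0.010) and miR-214-3p (−0.20) were not called. Nearly all of the skeletal muscle sum was miR-206-3p. Kidney epithelium markers (4 miRNAs) summed to 312 to 324 RPM in Control and 342 to 367 RPM in TGF-β1, but they did not move together. miR-192-5p (290 to 304 RPM and 337 to 361 RPM) and miR-194-5p rose, by 0.23 and 0.54 on the log2 scale, while miR-200a-3p (12.0 to 13.4 RPM and 0.726 to 1.64 RPM) and miR-200b-3p (5.52 to 8.13 RPM and 0.351 to 0.892 RPM) fell, with log2 differences of −2.64 and −2.27. The liver marker miR-122-5p was at 24.2 to 27.3 RPM in Control and 13.1 to 13.9 RPM in TGF-β1. The 2 neuronal markers summed to 2.06 to 2.40 RPM and 1.40 to 1.93 RPM. Of these 2, miR-124-3p fell (log2 difference −0.50, limma adjusted p = 0.0454), while miR-9-5p was not called (0.13, 0.428). The sums of the last 3 lists did not overlap between the groups. Blood cell markers were not analysed here.

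The passenger strands were rare, and most of their reads came from 1 of them. Summed over the family, with the shared sequence counted once, they reached 74.7 ± 14.1 RPM in Control and 69.7 ± 5.25 RPM in TGF-β1 (SD, n = 3 each). The guide strands summed to 661902 ± 5492 RPM and 596641 ± 11830 RPM. The 3p reads were thus 0.0113% ± 0.00223 of all reads of the family in Control and 0.0117% ± 0.000867 in TGF-β1, and these ranges overlap. let-7d-3p alone made up 64.8% ± 2.33 of the 3p reads in Control and 68.5% ± 5.55 in TGF-β1.

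In Control, mmu-let-7d-3p was at 47.1, 56.05 and 41.5 RPM in libraries 1 to 3, and in TGF-β1 at 41.9, 51.5 and 49.9 RPM. It ranked 97 of 778 by its mean, and every one of its values was above every value of the other 11 passenger strands. mmu-let-7b-3p followed at 7.22, 10.97 and 7.32 RPM in Control and 8.87, 6.87 and 9.31 RPM in TGF-β1. Its lowest library, TGF-β1 2, still lay above the highest value of let-7a-1-3p, which was 4.43, 6.35 and 4.94 RPM in Control and 4.56, 4.30 and 5.62 RPM in TGF-β1. The values listed for let-7c-2-3p were the same to within 1 read in each library.

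Below these, the order is less clear. let-7i-3p had a mean of 5.35 ± 2.09 RPM in Control (SD, n = 3), among the values of let-7a-1-3p. mmu-let-7e-3p was at 3.46, 5.52 and 2.16 RPM in Control and 2.93, 2.40 and 4.51 RPM in TGF-β1, so that it overlapped let-7a-1-3p above it and miR-98-3p below it. miR-98-3p was at 2.18, 3.30 and 2.04 RPM in Control and 2.28, 2.18 and 3.34 RPM in TGF-β1. let-7f-1-3p, at 0.728, 1.20 and 0.851 RPM in Control and 1.34, 0.279 and 0.936 RPM in TGF-β1, lay below every library of miR-98-3p.

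The other 4 passenger strands had so few reads that no change could be measured. let-7c-1-3p had 1, 1 and 4 reads in the Control libraries and 4, 0 and 2 in TGF-β1. let-7f-2-3p had 2, 2 and 0 reads and then 0, 1 and 1, let-7g-3p had 2, 0 and 0 and then 0, 0 and 2, and let-7a-2-3p had 1 read in the 6 libraries together. None of these passed the filter on low counts, and no fold change is given for them. Their guides were abundant, for example let-7g-5p with 849685 reads over the 6 libraries against 4 of let-7g-3p.

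**Figure D1:**
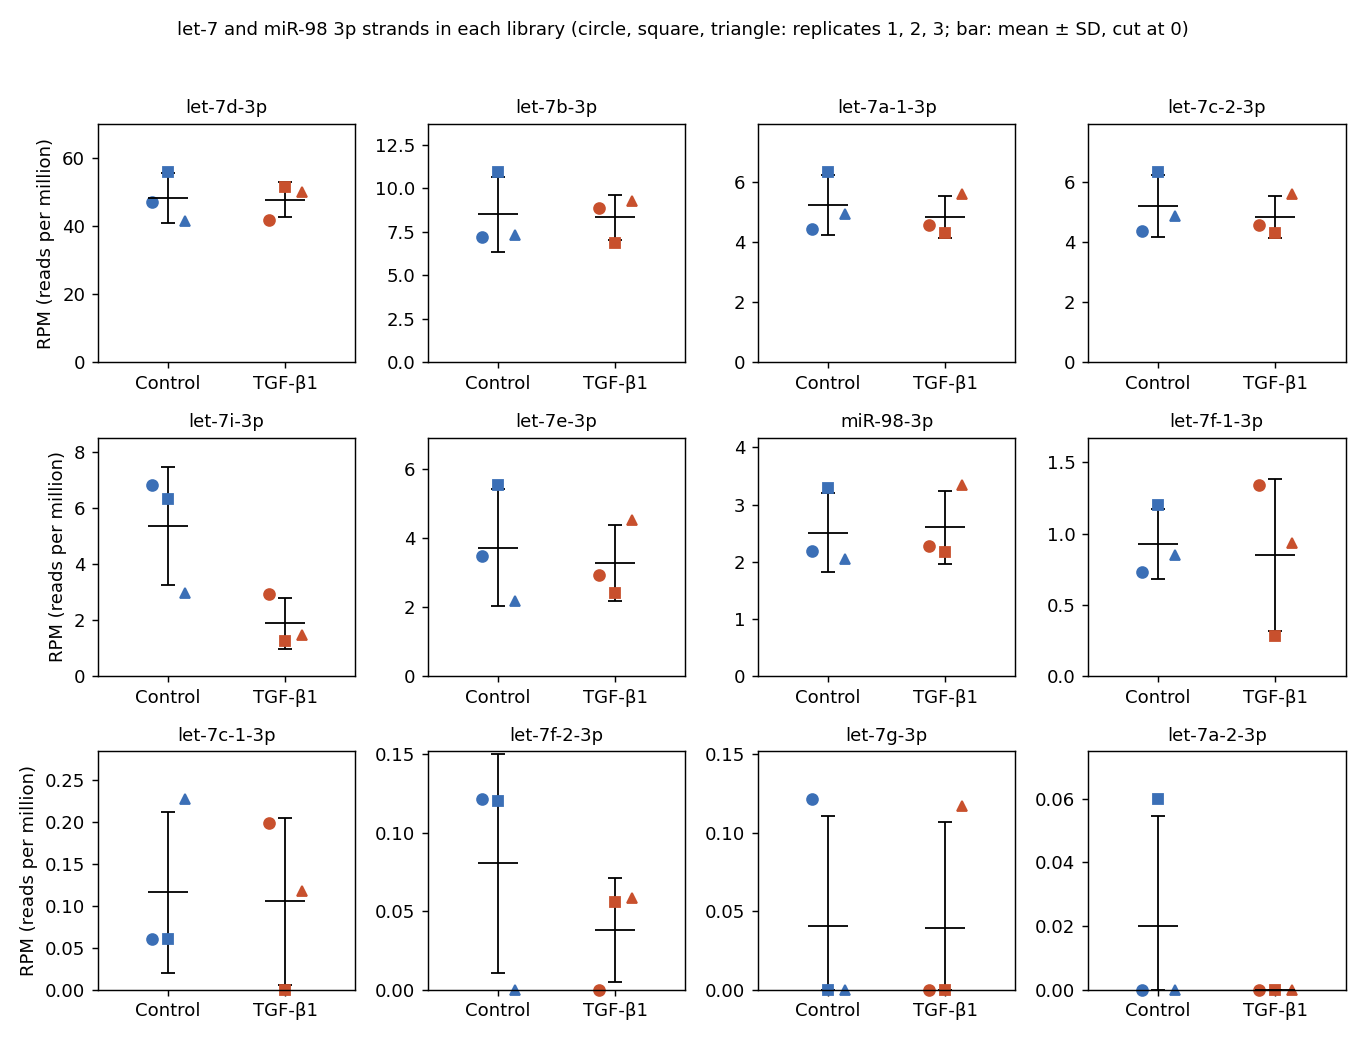
RPM of each of the 12 passenger strands (y axis, from 0, own scale per panel) in the 3 Control and 3 TGF-β1 libraries; points are libraries, and bars are the mean with the SD. The groups overlap in every panel except that of let-7i-3p, whose lowest Control value is 2.95 RPM and whose highest TGF-β1 value is 2.93 RPM.

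The hairpin copies of a letter gave unequal numbers of 3p reads. Of the let-7c copies, c-1 gave 12 reads over all libraries, and c-2 gave 529, a number that may include reads from let-7a-1, since the 3p sequence is shared. For let-7f, copy f-1 gave 95 reads and copy f-2 gave 6. For let-7a, copy a-2 gave 1 read, and a-1 gave 531, which may include reads from c-2. In the let-7f-2 and miR-98 pair, whose hairpins lie in the same host gene, miR-98-3p had 269 reads and let-7f-2-3p had 6. On chromosome 13, let-7d-3p had 5062 reads and let-7f-1-3p, from a hairpin of the same cluster, had 95.

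The share of 3p reads among all reads of a letter ranged over more than 3 orders of magnitude. miR-98 was highest, with a 3p share of 1.39% ± 0.438 in Control and 1.50% ± 0.416 in TGF-β1 (SD, n = 3 each). let-7d came next at 0.454% ± 0.0589 and 0.437% ± 0.0430. Over all libraries this is 69.0 guide reads for each miR-98-3p read and 224 for each let-7d-3p read. The remaining letters were far lower. let-7i had 2968 guide reads per passenger read, let-7b had 12958, let-7e had 17220, let-7f-1 had 125536 and let-7g had 212421.

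This can be set beside the other hairpins of the table. Among the 201 hairpins of a single name with both arms listed and at least 100 reads, the less abundant arm had a median share of 3.52%, and 66 were under 1%. let-7g had the lowest share of all 201, at 0.000471%. let-7e ranked 8 from the lowest at 0.00581%, let-7b ranked 9 at 0.00772%, and let-7i ranked 17 at 0.0337%. let-7d, at 0.444%, ranked 48, and miR-98, at 1.43%, ranked 75. All 6 were below the median, and a rank here is a description of pooled reads, with no test. The ranks also depend on depth, because the smallest share above 0 is that of 1 read. let-7g had 849689 reads in both arms, of which 4 were 3p, while miR-335, for example, had 111 reads in both arms.

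**Figure D2:**
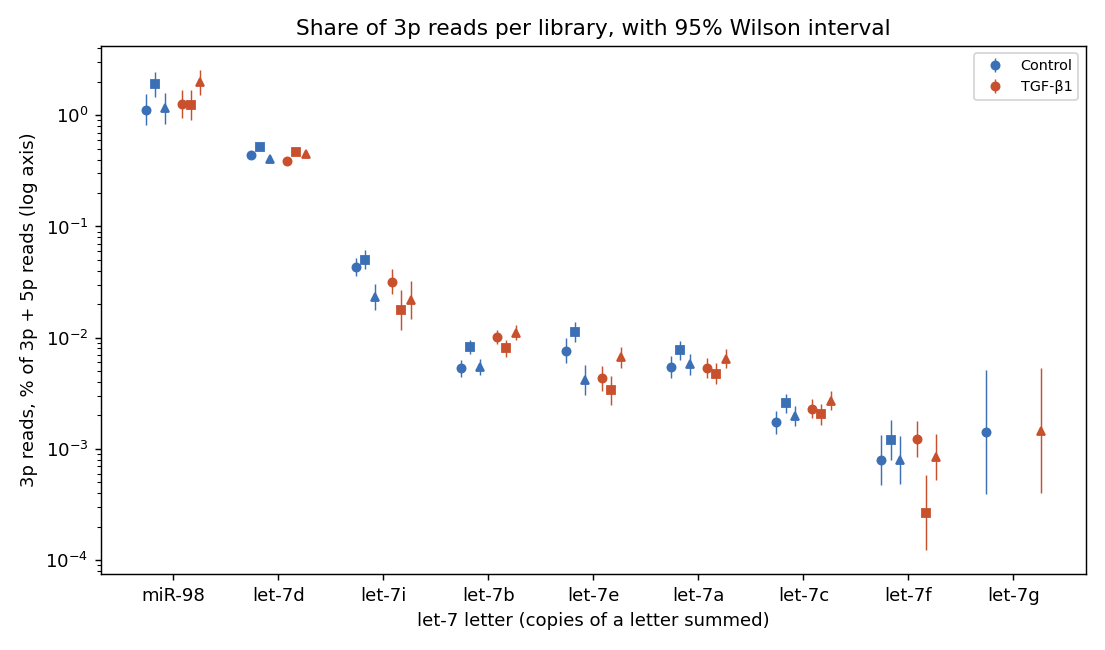
Share of 3p reads among the 3p and 5p reads of each letter (y axis, percent, log scale), with 1 point per library and its 95% Wilson interval, which covers counting error only; libraries with no 3p read of let-7g are not drawn. The letters spread far more than the groups do, from 1.12% to 1.98% for miR-98 to 0.00027% to 0.00123% for let-7f. The let-7g points drawn, of 2 reads each, are at 0.00142% and 0.00145%, and their intervals overlap those of let-7f.

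The 3p shares of Control and TGF-β1 overlapped for each of the 9 letters. They were compared by the exact two-sided permutation test, in which 3 libraries against 3 cannot give a p below 0.1. The lowest p was 0.2 (exact permutation test, n = 3 each), for let-7i and for let-7b, and 0.75 after Benjamini-Hochberg adjustment over the 9 letters. The let-7i share was 0.0433%, 0.0503% and 0.0233% in Control and 0.0319%, 0.0179% and 0.0217% in TGF-β1. Control 3 thus lay among the TGF-β1 libraries. For let-7b the share was 0.00532%, 0.00832% and 0.00543% in Control and 0.01005%, 0.00806% and 0.0111% in TGF-β1, with Control 2 above TGF-β1 2.

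mmu-let-7i-3p was the only passenger strand of the family to pass the test of level, and it fell. It was at 6.80, 6.29 and 2.95 RPM in Control, from 112, 105 and 52 reads, and at 2.93, 1.23 and 1.46 RPM in TGF-β1, from 59, 22 and 25 reads. Every TGF-β1 library was below every Control library, but the gap between Control 3 and TGF-β1 1 was 0.0254 RPM, less than the worth of 1 read. The TGF-β1 mean, 1.87 ± 0.920 RPM, was 0.350 times the Control mean of 5.35 ± 2.09 RPM (SD, n = 3 each). On the log2(RPM + 1) scale the difference was −1.13 ± 0.31 (SE, 95% interval −1.85 to −0.41), with an adjusted p of 0.0179 by limma with Benjamini-Hochberg adjustment over the 408 miRNAs tested. On the reads recovered from the RPM values, edgeR's quasi-likelihood test called it too (−1.33, adjusted p = 0.0139), as did DESeq2 (−1.27, adjusted p = 0.00596). In bulk RNA, fewer cells that make let-7i and less of it per cell cannot be told apart.

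The call on let-7i-3p rested on single libraries. Without Control 1 the difference was −0.95 (limma adjusted p = 0.0676), without Control 2 it was −0.996 (0.0770), without TGF-β1 2 it was −0.97 (0.0634), and without TGF-β1 3 it was −1.04 (0.0532), none of which passes. Without Control 3 the difference was −1.44 (limma adjusted p = 0.00302) and without TGF-β1 1 it was −1.38 (0.00610). The variance between the 3 Control libraries was 14.2 times that of counting error (chi-square per degree of freedom), and between the TGF-β1 libraries 8.46 times. The differences of the kidney epithelium markers (2 higher and 2 lower) and of the liver marker given above lie between the same groups. So do those of miR-145-5p (higher), miR-199a-3p (lower) and the neuronal marker miR-124-3p (lower). The part of these markers in this result was not tested.

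Of the 12 passenger strands, 8 were tested and 1 was called, while 49.3% of all tested miRNAs were called, 31.9% as lower and 17.4% as higher (71 higher and 130 lower). By scaling, that split was 82 to 97 higher against 91 to 105 lower. At an unadjusted p under 0.05 the count was again 1 of 8, beside 55.9% of all tested miRNAs. With an absolute log2 change above 1 as a further condition, let-7i-3p was still called, as were 7.84% of tested miRNAs in that direction and 4.41% as higher, but not under median-of-ratios scaling (−0.97) or with a pseudocount of 10 RPM (−0.36). Groups that do not overlap were seen for 1 of the 8, against 56.9% of all tested miRNAs, and 36% had every TGF-β1 library below every Control library. The median log2 difference was −0.089 for the 8 passenger strands and −0.17 for all 408 miRNAs. The sign of the first depends on the scaling: 7 of the 8 values were below 0 with the deposited RPM, and 2 of 8 under each of 4 other scalings, where the median of the 8 was 0.025 to 0.090.

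For the other 7 tested passenger strands no difference was called, and the intervals say how large a change they still allow. let-7d-3p was measured most closely, with a log2 difference of −0.0081 (95% interval −0.35 to 0.34, limma adjusted p = 0.973). let-7b-3p differed by −0.011 (−0.46 to 0.44) and miR-98-3p by 0.039 (−0.40 to 0.48). let-7a-1-3p differed by −0.094 (−0.48 to 0.29), and let-7c-2-3p, the same sequence, by −0.084 (−0.48 to 0.31). The widest intervals were those of let-7e-3p, −0.11 (−0.77 to 0.56), and let-7f-1-3p, −0.093 (−0.61 to 0.43). The limma adjusted p of these 6 ranged from 0.669 to 0.973.

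The scatter within a group was above that of counting error in most cases. The chi-square per degree of freedom, which is near 1 where only counting error acts, was 19.2 in Control and 10.7 in TGF-β1 for let-7d-3p, and 13.3 and 6.48 for let-7e-3p. The lowest values were 1.07 for let-7f-1-3p in Control, and 1.78 for let-7a-1-3p and let-7c-2-3p and 2.81 for miR-98-3p in TGF-β1, which on 2 degrees of freedom are not beyond counting error. The same libraries were high again and again. Control 2 was the highest Control library for 7 of the 8 tested passenger strands, let-7i-3p being the exception, and TGF-β1 3 the highest TGF-β1 library for 5 of 8. Both counts include let-7a-1-3p and let-7c-2-3p, which are 1 measurement under both names. Over all 408 tested miRNAs, Control 2 was the highest Control library for 49.0% and TGF-β1 3 the highest TGF-β1 library for 43.6%. Over the 98 less abundant arms tested outside the family these shares were 45.9% and 46.9%, and over the 9 guide strands 22.2% each.

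The guide strands of the same letters give the other arm of the comparison. let-7i-5p was at 15690, 12511 and 12666 RPM in Control and at 9153, 6864 and 6737 RPM in TGF-β1. It fell like its passenger strand, by 0.85 ± 0.13 on the log2 scale (SE, limma adjusted p = 0.00166). let-7b-5p fell by 0.64 (limma adjusted p = 6.48e-06) and let-7c-5p by 0.28 (6.05e-05), while let-7e-5p rose by 0.50 (0.000215). The other 5 guides were not called, with differences of −0.061 to 0.12, of which let-7f-5p (0.12, limma adjusted p = 0.0845) was called as higher without TGF-β1 1 (0.17, 0.00678). The fall of let-7c-5p depends on the scaling and was not called in 5 of the 19 alternatives, where the adjusted p reached 0.791. Of the 9 guides, 3 were thus called as lower and 1 as higher, while 49.3% of all tested miRNAs were called. let-7i was the 1 letter in which both arms were called, both as lower. The share of all hairpins with both arms called was not counted.

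**Figure D3:**
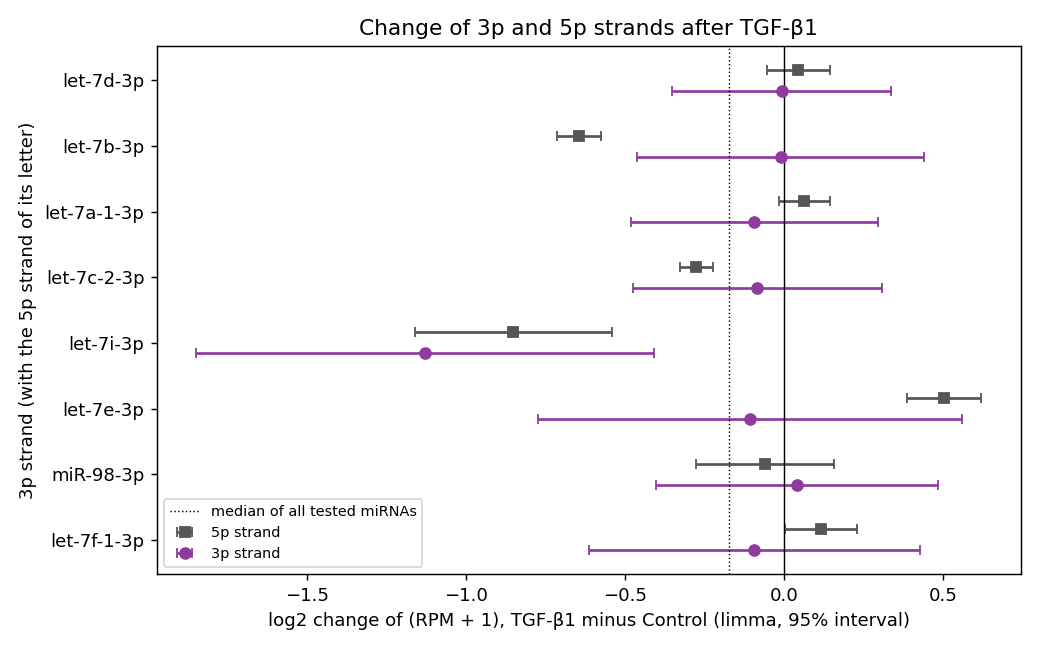
Log2 difference of RPM + 1 between TGF-β1 and Control (x axis) for each tested passenger strand (circles) and the guide of its letter (squares), with the limma 95% interval. The 3p interval of let-7i, from −1.85 to −0.41, is the only 3p interval that excludes 0, while the 5p intervals of let-7b, let-7c, let-7e, let-7i and, narrowly, let-7f do so before adjustment for the number of tests.

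Whether the 2 arms differed in their response was tested on the ratio of 3p to 5p within each library, which does not depend on library scaling. Of 99 hairpins whose arms both averaged at least 1 RPM, 27.3% were called by limma with Benjamini-Hochberg adjustment, 20.2% with 3p lower against 5p and 7.07% with 3p higher. Of the 7 let-7 and miR-98 ratios tested, none was called, and 1, that of let-7b, had an unadjusted p under 0.05, as did 37.4% of all 99. None was called either in the 12 alternatives, of which 11 tested all 7 and 1, a minimum mean of 10 RPM in both arms, left let-7d alone to test. No count model was run on the ratio.

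The ratio nearest to a call was that of let-7b, where the guide fell and the passenger strand did not pass the test. The log2 ratio of 3p to 5p was −14.18, −13.54 and −14.15 in Control and −13.26, −13.58 and −13.13 in TGF-β1. Control 2 lay above TGF-β1 2, so the groups overlapped. The difference of the log2 ratio was 0.63 ± 0.27 (SE, 95% interval 0.07 to 1.20, limma adjusted p = 0.0864), and over the alternatives the adjusted p ranged from 0.0580 to 0.297.

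The ratios of let-7i and let-7e differed in the other direction, and neither was called. For let-7i the difference was −0.62 ± 0.36 (SE, 95% interval −1.36 to 0.12, limma adjusted p = 0.217), so that a fall of let-7i-3p beyond that of its guide was not shown. For let-7e, whose guide rose, it was −0.63 ± 0.37 (−1.40 to 0.14, limma adjusted p = 0.228). Both sizes depend on single libraries: that of let-7i was −0.41 without Control 2 and −0.95 without Control 3, and that of let-7e −0.30 and −0.998. The let-7e value was also −0.41 without TGF-β1 2, and the let-7i value −0.28 with a pseudocount of 1 RPM. The ratios of let-7c-2, let-7a-1, let-7d and miR-98 differed by 0.18, −0.17, −0.053 and 0.12, with limma adjusted p of 0.711 to 0.879. For let-7a-1 and let-7c-2 the guide is also made by another copy, and their 3p reads are shared. The median absolute difference of the ratio was 0.18 over the 7 ratios of the family and 0.49 over all 99 hairpins. The 0.18 is the value of let-7c-2, whose 3p reads also enter as let-7a-1 (−0.17), so this median rests on 1 measurement listed under both names. The differences of let-7b, let-7i and let-7e (0.63, −0.62 and −0.63) were larger in size than 0.49.

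**Figure D4:**
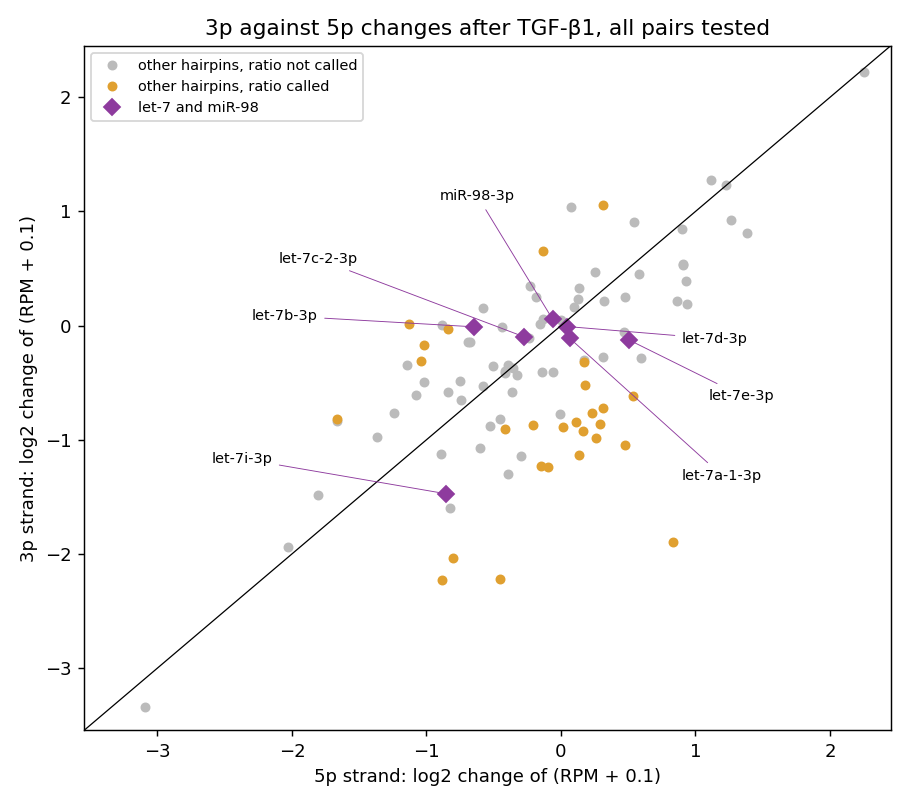
Log2 difference of RPM + 0.1 between TGF-β1 and Control for the 3p strand (y axis) against the 5p strand (x axis) of the 99 hairpins tested. Diamonds are let-7 and miR-98, and the line marks equal change. Among the other hairpins, orange circles mark those whose 3p to 5p ratio was called, and grey circles those not called. The 7 diamonds lie among the hairpins that were not called, with let-7b above the line by 0.63 and let-7e and let-7i below it by 0.63 and 0.62.

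Over the 6 libraries, let-7i-3p was also the passenger strand that most closely followed its guide, with a Pearson r of 0.917 on the log2(RPM + 1) scale. The r of the other tested passenger strands with their guides ranged from 0.608 for let-7d-3p to −0.704 for let-7f-1-3p. These points share libraries, and the 2 groups alone give a high r wherever both arms differ between them. The miRNAs whose levels were most like that of let-7i-3p were miR-143-5p (r = 0.985) and miR-449c-5p (r = 0.983), both called as lower, by 1.12 and 0.59 on the log2 scale. miR-143-5p is itself the less abundant arm of a hairpin whose 3p strand is typical of smooth muscle. Of 391 candidates outside the family, 51 had an r above 0.9 with let-7i-3p, against 0 to 3 for the other passenger strands.

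The nearest patterns of the other passenger strands were those of miRNAs that were not called. For let-7d-3p they were miR-671-3p (r = 0.943) and miR-664-3p (0.872), and for let-7b-3p miR-296-5p (0.881) and miR-674-3p (0.874). For let-7a-1-3p they were miR-193b-5p (0.945) and miR-361-3p (0.924), and for let-7c-2-3p the same pair (0.933 and 0.928). For let-7e-3p they were miR-1306-5p (0.971) and miR-532-3p (0.936). miR-98-3p was closest to miR-361-3p (0.932) and miR-3066-5p (0.889), and let-7f-1-3p to miR-540-3p (0.928) and miR-296-5p (0.845). Each r is over 6 libraries and is the highest of 391.

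The passenger strands of the miR-99, miR-100 and miR-125 hairpins are known to share primary transcripts or clusters with let-7 hairpins. Of these, 1 of 6 was called by level, beside 49.3% of all tested miRNAs. Of the 6, miR-99b-3p was called: it fell from 136 ± 7.14 to 104 ± 15.9 RPM (SD, n = 3 each), by 0.40 ± 0.13 on the log2 scale (SE, limma adjusted p = 0.0367), and lost the call in 11 of 19 alternatives, each of the 4 other scalings among them, and without Control 1, Control 2, Control 3 or TGF-β1 3 (adjusted p of 0.0677, 0.0895, 0.0884 and 0.0764). miR-99b and miR-125a are partners of let-7e, whose own passenger strand differed by −0.11. miR-125a-3p differed by −0.33 (limma adjusted p = 0.127) and miR-125b-2-3p by −0.64 (0.0540). Leaving out TGF-β1 1 called both as lower (−0.46, adjusted p = 0.0395, and −0.84, 0.0124), and leaving out Control 3 called miR-125b-2-3p (−0.81, 0.0225), as did upper-quartile scaling (−0.56, 0.0416). miR-99a-3p, miR-100-3p and miR-125b-1-3p differed by −0.27, −0.18 and 0.23, with limma adjusted p of 0.256 to 0.300, and of these miR-125b-1-3p was called as higher under median-of-ratios scaling (0.44, 0.0465). In the test of the 3p to 5p ratio, miR-125b-2-3p was called as lower against its guide miR-125b-5p (limma adjusted p = 0.0128). Of all 99 ratios, 27.3% were called, 20.2% with 3p lower. On the log2(RPM + 0.1) scale the 3p strand differed by −1.05 and the guide by 0.47. miR-125b-5p is also the guide set against miR-125b-1-3p (0.25 on that scale), so the ratio is not that of 1 hairpin. miR-125b-2-3p had only 10 to 46 reads in each library. The ratios of miR-99a, miR-99b, miR-125a and miR-125b-1 were not called, and that of miR-100 was not tested. Among the 98 less abundant arms tested outside the family, 15 were called higher and 32 lower, with a median log2 difference of −0.20.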

How the data were processed

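Small RNA of 3 Control and 3 TGF-β1 libraries was sequenced on an Illumina HiSeq instrument. Per the study's methods, the authors trimmed adaptors, removed short and low-quality reads and matched the rest to known miRNAs of miRBase with Bowtie, whose version is not given in the sources used here. The deposited table lists 778 mature miRNAs, and although the authors call its unit TPM, the values are RPM, with no length in them. The sources do not say what was done with reads matching more than 1 miRNA. Each library total was recovered as the integer that makes its values whole reads (100% whole within 0.002 reads).

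miRNAs kept by edgeR's filterByExpr (minimum count 10), 408 in all, were tested with limma 3.58.1 (R 4.3.3, trended eBayes) on log2(RPM + 1), and 3p to 5p ratios on log2(RPM + 0.1). Fold changes on these scales understate those of low miRNAs. p-values were adjusted by Benjamini-Hochberg, with calls at 0.05. On the recovered reads, edgeR 4.0.16 with TMM factors called 186 of 408 and DESeq2 1.42.0 called 147, against 201 by limma. Wilson intervals (95%) cover counting error only. Hairpins were folded with RNAfold 2.7.2. The scripts were tested on simulated data. The named miRNAs are all members, their guides, the miR-99, miR-100 and miR-125 passenger strands, and the 2 miRNAs closest to each tested member by Pearson r. Members and lists were chosen with earlier results of these data known.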

Additional observations from a re-analysis of the deposited data

How the results depend on the processing

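Of the passenger strands, let-7i-3p kept its call in 15 of 19 alternatives, and the number called was 1 in each except when a library was left out (0 to 1). With an absolute log2 change above 1 the number was 0 under median-of-ratios scaling and under a pseudocount of 10, and 0 to 1 without single libraries. The log2 change of let-7i-3p was −0.36 with a pseudocount of 10, which by construction shrinks low values, and −0.95 to −1.50 otherwise. The differences of let-7d-3p, let-7b-3p, let-7c-2-3p, let-7a-1-3p and let-7e-3p, none of them called, changed sign with the scaling. They were near 0 with the deposited RPM (−0.11 to −0.0081), and each of the 4 other scalings moved them up. Those scalings also moved the median of all tested miRNAs, from −0.17 to between −0.086 and −0.022. The listed miRNAs held on average 79.6% of the reads in Control and 72.3% in TGF-β1, and the cause of that difference was not tested. Under the 4 other scalings with limma, miR-98-3p stayed above 0 (0.14 to 0.19) and let-7f-1-3p below 0 (−0.048 to −0.0043). In the order TMM, median-of-ratios, upper quartile, sum of the listed miRNAs, edgeR with TMM and DESeq2, let-7d-3p was at 0.14, 0.20, 0.13, 0.13, 0.15 and 0.21, let-7b-3p at 0.12, 0.18, 0.11, 0.12, 0.12 and 0.19, let-7c-2-3p at 0.042, 0.095, 0.030, 0.033, 0.039 and 0.11, and let-7a-1-3p at 0.032, 0.085, 0.020, 0.023, 0.028 and 0.095. In the same order the guides let-7g-5p (0.099, 0.16, 0.084, 0.085, 0.10 and 0.16) and miR-98-5p (0.091, 0.15, 0.076, 0.077, 0.091 and 0.15) changed sign. let-7e-3p was at 0.012, 0.061, 0.0013 and 0.0019 under the first 4 and at 0.049 with DESeq2, and let-7f-1-3p at 0.039 with edgeR and TMM and at 0.084 with DESeq2. Without single libraries, let-7d-3p ranged from −0.11 to 0.10, let-7b-3p from −0.10 to 0.17, let-7c-2-3p from −0.18 to 0.046, let-7a-1-3p from −0.19 to 0.031, let-7e-3p from −0.36 to 0.16, miR-98-3p from −0.10 to 0.19 and let-7f-1-3p from −0.28 to 0.15, and the log2 ratio of 3p to 5p from −0.14 to 0.046 for let-7d and from −0.098 to 0.36 for miR-98, from −0.95 to −0.41 for let-7i, from −0.998 to −0.30 for let-7e, from −0.29 to −0.026 for let-7a-1 and from 0.058 to 0.34 for let-7c-2. No let-7 or miR-98 ratio was called under any alternative. Of the guides that were not called, let-7f-5p, let-7a-5p and let-7d-5p were called as higher in 5, 2 and 2 alternatives.

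Libraries with the same replicate number did not deviate together (correlations of −0.084, −0.21 and −0.34). The labels do not say whether such libraries were paired, and these correlations, given without an error, cannot decide it. With the replicate number as a block, let-7i-3p kept its call (−1.13, limma adjusted p = 0.0113) and miR-99b-3p lost it (limma adjusted p = 0.0668). In that fit 1 passenger strand and 0 ratios of the let-7 family were called, and 176 of 408 miRNAs were called against 201. Leaving out let-7c-2-3p as a copy of let-7a-1-3p, an alternative chosen after seeing the data, moved no call of a passenger strand. Passenger strands of 12 reads or fewer in all could not be tested at this depth.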
